A study of Homo sapiens with 4 samples.

Results

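The calcium channel gamma subunit genes are the 8 genes CACNG1 to CACNG8, taken here by name, and NRSF/REST sites were assigned to a gene when any base of the site lay in it or within 10 kb of it in GENCODE release 44 mapped to hg19. This rule found 7 of the 5323 sites called at the basal SF-1 dosage and 8 of the 5059 sites called at the increased dosage. ChIP-seq for NRSF/REST had been done in H295R/TR SF-1 cells, which derive from the human adrenocortical tumor line H295R and make additional SF-1, a nuclear receptor of steroid-producing tissues, when doxycycline is added. One library came from cells at the basal SF-1 dosage and the other from cells overexpressing SF-1, for which the labels give doxycycline for 3 days before fixation. Both libraries came from this single line and, per the labels, from the same Millipore antibody. With 1 library per dosage, no difference between dosages has a replicate check, and the values describe these libraries only. The deposited lists hold no read counts, so library depth is unknown.

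NRSF/REST is a zinc finger repressor that silences neuronal genes outside the nervous system. It binds an extended DNA element with a left and a right part, called RE1, and recruits corepressor complexes. The gamma subunits are small membrane proteins of the claudin superfamily. CACNG1 encodes the gamma subunit of the skeletal muscle calcium channel, and CACNG6 encodes its closest relative. The other members encode transmembrane AMPA receptor regulatory proteins (TARPs), which bring AMPA-type glutamate receptors to the synapse of neurons and set their gating. Type I TARPs are the products of CACNG2 (stargazin), CACNG3, CACNG4 and CACNG8, and type II TARPs are those of CACNG5 and CACNG7.

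The sequences below are those on which the description of the sites turns, the best match to the NRSF/REST consensus CTGTCCNNGGTGCTG in each place that held one. The consensus has 13 fixed bases, a left part CTGTCC and a right part GGTGCTG, with 2 free bases (N) between them, and was searched on both strands with at most 2 mismatches. Each sequence is printed 5′ to 3′ in the direction of the consensus, read from the hg19 reference, and capitals mark the 15 positions of the consensus.
CACNG2 intron 1, chr22:37040469-37040489, plus strand: gatgCTCTCCAAGGTGCTGaa
CACNG3 upstream of the start, chr16:24267413-24267433, minus strand: gccaAGGTCCGTGGTGCTGaa
CACNG5 intron 1, chr17:64844003-64844023, minus strand: ggagCTGGCCTTGGTGCTGtg
CACNG7 upstream, chr19:54406514-54406534, plus strand: agcgCTGTCCATGGTTCTGaa
CACNG7 intron 4, chr19:54431152-54431172, plus strand: gcacCTGTCCATGGTCCTGaa
With consensus positions counted from 1 at its 5′ end, CACNG2 carried the substitution G3C, CACNG3 carried C1A and T2G, and CACNG5 carried T4G. The CACNG7 upstream match carried G12T and the match in intron 4 carried G12C. None of these 5 was free of mismatches, and each 21-base sequence occurred once in hg19.

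Sites lay at CACNG2, CACNG3, CACNG5 and CACNG7, and at both dosages these were the same 4 genes. No site lay in or within 10 kb of CACNG1, CACNG4, CACNG6 or CACNG8 in either list. By class, 2 of 4 type I TARP genes, 2 of 2 type II TARP genes and 0 of 2 genes outside the TARPs had a site. Among 20163 protein-coding genes, the share reached by a site under the same rule was 13.9% in the basal list and 13.6% in the increased list. The count of 4 of 8 members was above this share, which itself rose with gene length, and the difference was not tested. It was 31.2% at the basal dosage for genes of 100 kb or more, the class of CACNG2 (143 kb) and CACNG3 (106 kb). It was 13.7% for genes of 50 to 100 kb, the class of CACNG5 (59.6 kb), which had a site, and CACNG4 (68.7 kb), which had none. It was 10.4% for genes of 20 to 50 kb, the class of CACNG7 (34.7 kb), CACNG8 (27.3 kb) and CACNG6 (21 kb), and only CACNG7 of these had a site. CACNG1 (12.2 kb) falls in the class under 20 kb, in which 8.57% of genes had a site. In the increased list the shares of these classes were 30.6%, 13.5%, 9.84% and 8.39%, from longest to shortest. At least 2 sites were assigned to 3 of the 8 members (CACNG2, CACNG5 and CACNG7) at either dosage, against 3.21% of protein-coding genes in the basal and 3.07% in the increased list. These shares were not split by gene length. The upstream sites of CACNG5 and CACNG7 lay wholly outside the genes, so with no flank only CACNG2 kept 2 basal sites.

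**Figure D1:**
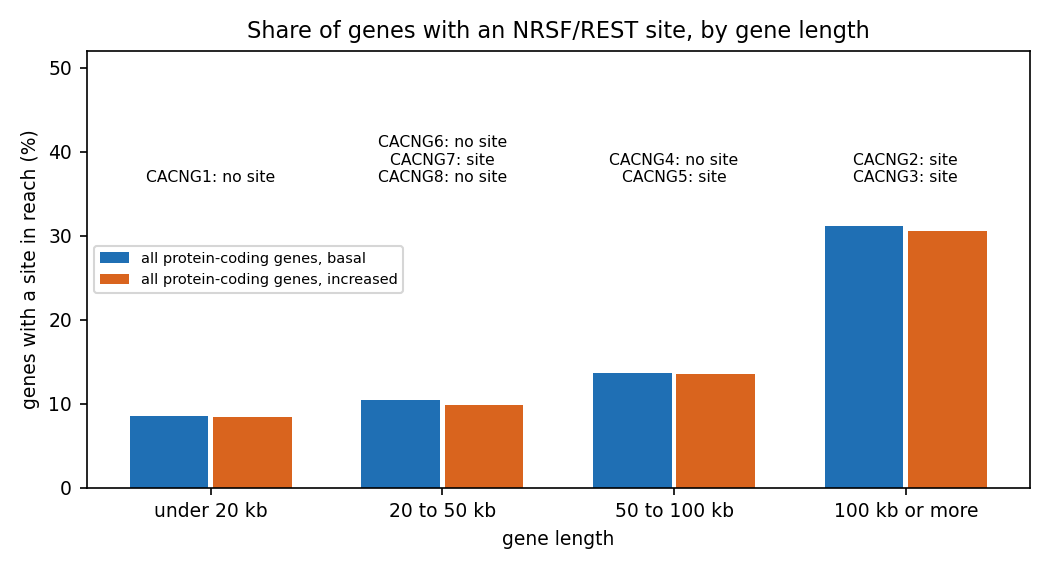
Percentage of all protein-coding genes reached by an NRSF/REST site under the rule of 10 kb (y axis), by gene length (x axis), in the basal (blue) and increased (orange) list, with the 8 gamma subunit genes named over their length class. The share was 31.2% and 30.6% for genes of 100 kb or more, and 1 member with a site fell into each of the classes from 20 to 50 kb and from 50 to 100 kb.

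Each site was also placed within its gene. Site positions below count bases from 1 on hg19, and distances run from the annotated gene start to the site midpoint along the strand of the gene. The order number is the running number of the site in the authors' list, and over all sites it ran almost inversely to width (Spearman's rho of -0.95 in each list, over 5323 and 5059 sites, a description across sites within 1 library). The authors' score is 1000 for every site and carries no strength. The median width was 299 bp in both lists and 349 bp in the sites in or within 10 kb of a protein-coding gene. The sites at the gamma subunit genes had a median of 899 bp at the basal and 774 bp at the increased dosage. Of these, 6 of 7 and 6 of 8 were wider than the median of their list.

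**Figure D2:**
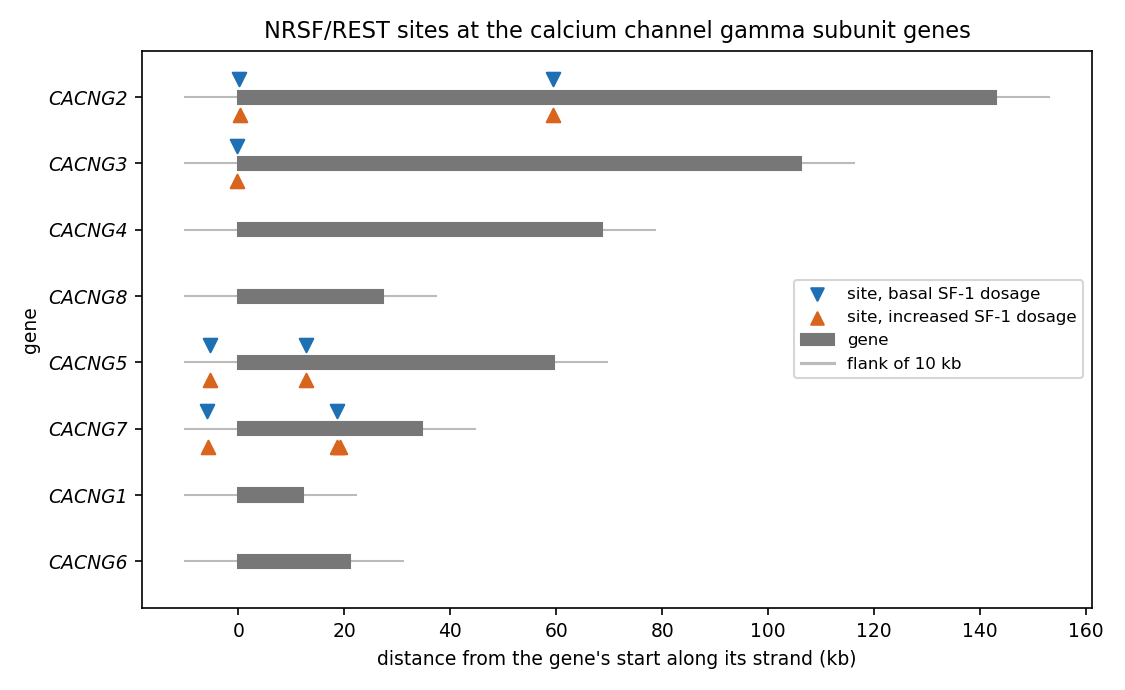
Position of site midpoints along each gamma subunit gene, in kb from the gene start along its strand (x axis), with genes in rows. Triangles above a gene mark basal sites and triangles below mark sites at the increased dosage. The 4 genes without a site are CACNG1, CACNG4, CACNG6 and CACNG8, and only CACNG7 has an additional site at the increased dosage.

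CACNG2 encodes stargazin, the founding TARP, named for a mouse mutant with ataxia and absence seizures. It lies on the minus strand of chromosome 22 from 36956904 to 37099797 (Ensembl ENSG00000166862) and had 2 sites at each dosage. One site covered the gene start. At the basal dosage it ran from 37099101 to 37100149, 1049 bp wide with order number 557. At the increased dosage it ran from 37099101 to 37099999, 899 bp wide with order number 480. Both calls shared their inner edge, and the basal call reached further upstream, with 352 bp against 202 bp outside the gene. At either dosage 697 bp of the site lay in the 5′ UTR of exon 1. The site was rich in C and G, at 60.9% of bases at the basal dosage against a median of 45.5% over the list. It held 7.34 CpG dinucleotides per 100 bp against a median of 1.0.

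The other CACNG2 site lay in intron 1, 59.4 kb inside the gene, from 37040051 to 37040799 at both dosages. Its width was 749 bp in each list, where boundaries fall on steps of 50 bp. Its order number was 412 at the basal and 515 at the increased dosage, within the first 7.74% and 10.2% of the lists. This intronic site, and not the site at the gene start, carried the consensus match with 1 mismatch. The match centre lay 55 bp from the site midpoint, and base composition was 42.3% C and G. At the gene start the closest match had 3 mismatches and lay 357 bp from the basal midpoint, in the 5′ UTR of exon 1. Its sequence ctcgCTTTCCATGGTTTTGcc (chr22:37099257-37099277, plus strand) carried G3T, G12T and C13T. A match this loose was also common 10 kb away from called sites, in 28.1% of windows of like width (599 to 1249 bp), so the gene start site was counted as without the consensus. Windows that overlapped another site were not left out.

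CACNG3 encodes a type I TARP of the forebrain. It lies on the plus strand of chromosome 16 from 24267656 to 24373733 (Ensembl ENSG00000006116), and its only site covered the gene start. The basal site ran from 24266951 to 24267849 with a width of 899 bp, and the site at the increased dosage ran from 24267051 to 24267849 with a width of 799 bp. Their order numbers, 171 and 173, were the lowest of all gamma subunit sites, within the first 3.21% and 3.42% of the lists. Of the basal site, 705 bp lay upstream of the gene and 194 bp in the 5′ UTR of exon 1. The share of C and G was 63.1%, with 6.23 CpG per 100 bp, so that the sites at the starts of CACNG2 and CACNG3 were both above the list median on both measures. So were the basal sites upstream of CACNG5 (54.6% and 2.95) and in CACNG7 intron 4 (45.7% and 2.0). No background for gene starts is given here. The RefSeq promoter of CACNG3 (a window of 300 bases around the start, GRCh38.p14) occurred once in the CACNG3 region of hg19, and all 300 bases lay within the site at either dosage. The gene start lay in a site for 2 of the 8 members, against 0.937% of protein-coding genes at the basal and 0.868% at the increased dosage.

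The CACNG3 site held 1 consensus match and a near copy of it with 3 mismatches, which was not counted as the consensus. The stretch with both is shown to make the repeat visible. It is read on the minus strand at chr16:24267322-24267453, with capitals at the consensus positions of the match with 2 mismatches and then of the match with 3.
CACNG3 promoter stretch: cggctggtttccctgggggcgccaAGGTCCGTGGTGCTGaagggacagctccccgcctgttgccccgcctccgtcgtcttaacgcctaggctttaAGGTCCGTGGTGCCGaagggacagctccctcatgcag
The matches lay 71 bp apart on the same strand, 234 and 305 bp upstream of the gene start. Within a run of 30 bases that included the consensus positions of each match they differed at 1 base. Both began with C1A and T2G, and the second also carried T14C. The better match lay 22 bp from the midpoint of the basal site and 28 bp from that of the site at the increased dosage. The match with 2 mismatches lay in the RefSeq promoter window, which begins at 24267406, and the match with 3 lay upstream of that window. Among 35116 RefSeq promoters of 300 bases, 2.03% held the consensus with at most 2 mismatches.

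CACNG5 encodes a type II TARP. It lies on the plus strand of chromosome 17 from 64831235 to 64890868 (Ensembl ENSG00000075429) and had 2 sites at each dosage. The upstream site lay outside the gene. It ran from 64825451 to 64826399 at the basal and from 64825401 to 64826349 at the increased dosage, 949 bp wide in both, with order numbers 703 and 666. The midpoints lay 5.31 and 5.36 kb before the gene start. Despite this width the site held no consensus match, the closest having 3 mismatches. Among all sites of 599 to 1249 bp, 80.2% held the consensus at the basal and 80.1% at the increased dosage.

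The upstream CACNG5 site did hold both parts of the element at another distance. With at most 1 mismatch in each part and any distance of up to 20 bases other than 2, such pairs were common, in 24.8% of basal sites lacking the consensus and 24.1% of those in the increased list. The site in CACNG2 intron 1 also held such a pair, 9 bases apart, besides its consensus match. The sequence CTGTCCaGATGCTG at chr17:64825836-64825849 (plus strand, parts in capitals) has 1 base between the parts in place of 2, and 1 mismatch. It lay 82 bp from the midpoint at the basal and 32 bp from it at the increased dosage. This short sequence occurred 54 times in hg19. The distance of 1 base was singled out after it was seen at this site. Parts at that distance occurred in 2.28% of the 3159 basal sites that lacked the consensus and in 0.38% of their windows 10 kb away. The increased list gave 2.22% of 2930 such sites and 0.444% of windows. Binding to this sequence itself was not measured.

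The CACNG5 site in intron 1 differed most between the lists. It ran from 64843851 to 64844149 at the basal dosage, 299 bp wide with order number 2791, in the middle of the list. At the increased dosage it ran from 64843901 to 64843999, with a width of 99 bp and order number 4882. The latter is the smallest width in the list, and 96.5% of the list lies at or before this order number. The consensus match lay 12 bp from the basal midpoint but 5 bases beyond the edge of the site at the increased dosage, so by the rule the site counted as with the consensus at the basal dosage only. The site had lost width on both sides, with its right edge at 64844149 in the basal and 64843999 in the increased list. The basal match also contained a perfect match to the SF-1 consensus (CAAGGTCA, CAAGGACA or CAAGGCCA, both strands). On the plus strand it reads cagcacCAAGGCCAgctccc at chr17:64844011-64844018 with the SF-1 match in capitals. The substitution T4G of the NRSF/REST match falls inside these 8 bases.

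CACNG7 encodes the other type II TARP. It lies on the plus strand of chromosome 19 from 54412532 to 54447204 (Ensembl ENSG00000105605). Its upstream site was the widest of all gamma subunit sites. It ran from 54406001 to 54407149 at the basal dosage, 1149 bp wide with order number 305, and from 54406101 to 54407349 at the increased dosage, 1249 bp wide with order number 298. The midpoints lay 5.96 and 5.81 kb before the start of CACNG7, outside the gene. The assignment of this site to CACNG7 therefore rests on distance only. The match with 1 mismatch lay 50 bp from the basal midpoint. A further match with 2 mismatches (C6G and G9T) lay 398 bp from it on the minus strand, tgctCTGTCGCCTGTGCTGga at chr19:54406964-54406984, a sequence with 2 copies in hg19.

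In intron 4 of CACNG7, 18.7 kb inside the gene, a site of 599 bp ran from 54430901 to 54431499 at both dosages. Its order numbers were 384 and 523, within the first 7.21% and 10.3% of the lists. The consensus match lay 37 bp from the midpoint. A second site in this intron, from 54431651 to 54431849, was called at the increased dosage only. It was 199 bp wide with order number 4349, and 151 bases separated it from its neighbour. It was the only gamma subunit site without a counterpart at the other dosage. Its closest consensus match had 4 mismatches.

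**Figure D3:**
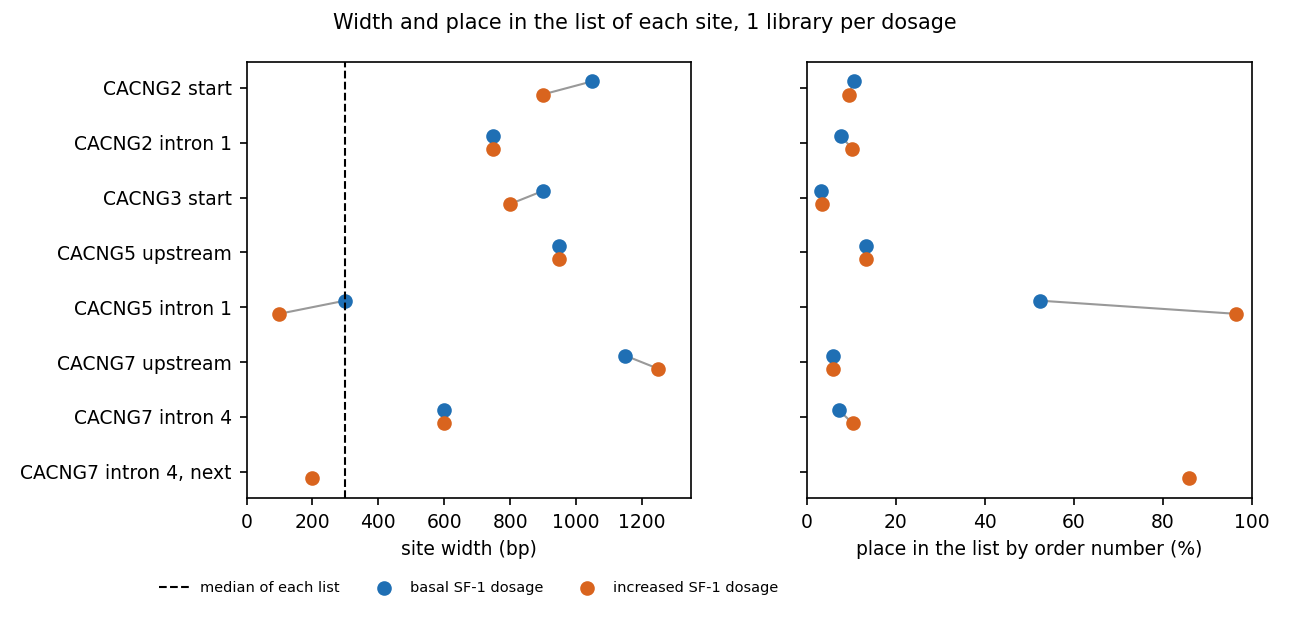
Width in bp (left) and order number as a percentage of the list (right) of each site at the basal (blue) and increased (orange) dosage, with 1 library each and the list median of 299 bp as a dashed line. The site in CACNG5 intron 1 goes from 52.4% to 96.5%, while the wide sites lie between 3.21% and 13.2% at both dosages, and the second site in CACNG7 intron 4 has an orange point only.

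All 7 basal sites were present in the increased list with at least 1 bp of overlap, and 7 of 8 sites were present the other way round. Over the whole lists these shares were 64.5% and 67.9%, and among sites in or within 10 kb of a protein-coding gene they were 67.2% and 70.1%. For sites of 599 to 1249 bp, the widths of 6 of these 7 places, the background was 99.9% and 99.7%, and presence of these 6 at both dosages did not stand apart from it. Overlap was 599 bp in CACNG7 intron 4 and 749 bp in CACNG2 intron 1, the full width of each. It was 1049 bp at CACNG7 upstream, 899 bp at the start of CACNG2, 899 bp at CACNG5 upstream and 799 bp at CACNG3. It was lowest in CACNG5 intron 1 with 99 bp. The covered length summed to 5693 bp in the basal list and 5542 bp in the increased list, which had 1 site more. Of the 6 wide places, 2 were narrower at the increased dosage, 1 was wider and 3 had the same width.

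The consensus was present in 5 of 7 basal sites and 4 of 8 sites of the increased list, against 40.7% and 42.1% of all sites and 44.7% and 45.9% of those in or within 10 kb of a protein-coding gene. Most of the member sites were wide, however, and of the 6 wide ones 4 held it at either dosage, which was not above the 80.2% and 80.1% of all sites of 599 to 1249 bp. Over all 7 and 8 sites, at most 1 mismatch was found in 4 and 3, against 28.5% and 29.8% of the lists. A match without mismatch was found in 0, against 11.2% and 11.8% of the lists. These list shares were not matched for width. In windows of the same width 10 kb to either side of these sites, 1 of 14 and 1 of 16 held the consensus, against 1.79% and 1.8% of such windows over the lists. In the 5 places with the consensus, the best match lay from 12 to 55 bp from the basal midpoint, so it was near the centre in each. The wide sites without it were that at the start of CACNG2 and that upstream of CACNG5. All 5 best matches kept the bases at consensus positions 5, 6, 9, 10, 11, 13, 14 and 15. Matches were chosen for at most 2 mismatches, so kept positions follow in large part from that choice and do not show conservation. Position 12 was substituted in both CACNG7 matches. That position was also the most frequent one over the list, substituted in 35.3% of the 921 basal sites whose best match had 1 mismatch. It was followed by position 3 with 17.5%, where the CACNG2 match differs, and position 4 with 15.2%, where the CACNG5 match differs. Positions 1 and 2, where the CACNG3 match differs, were seldom substituted in these 921 sites, in 3.47% and 0.434%. The CACNG3 match itself has 2 mismatches.

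**Figure D4:**
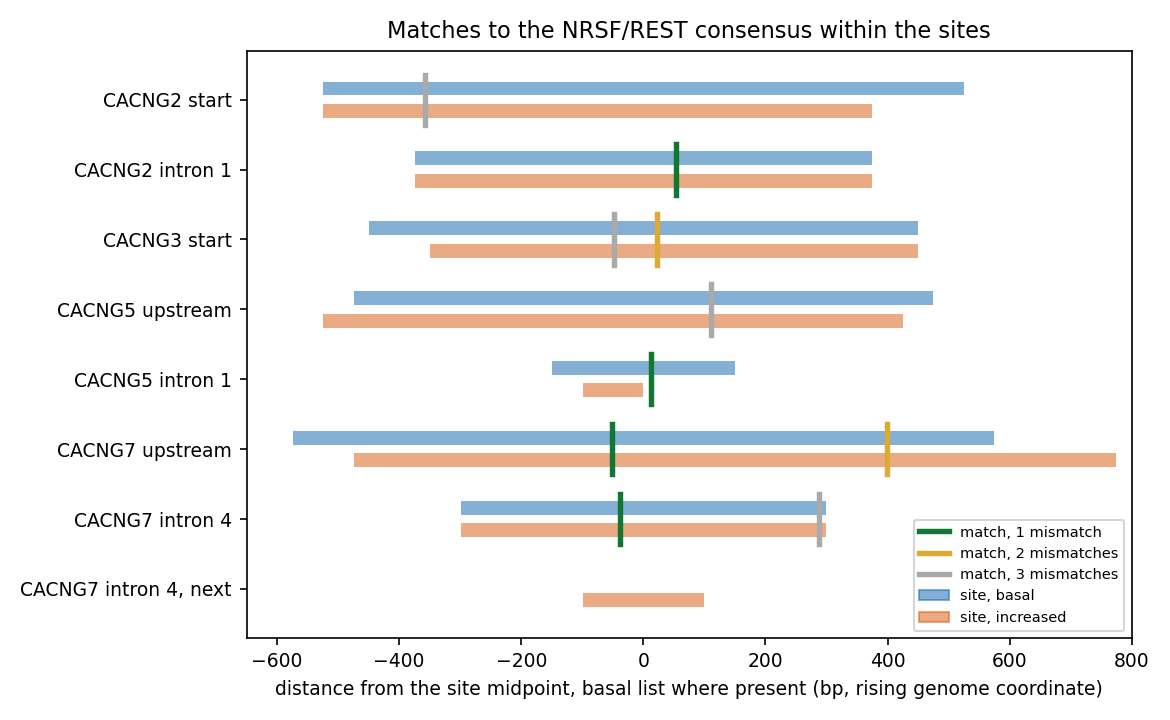
Extent of each site at the basal (blue) and increased (orange) dosage, in bp from the basal site midpoint where there is a basal site (x axis). Vertical bars mark matches with up to 3 mismatches, coloured by mismatches, and those with 3 are not counted as the consensus. In the basal sites with the consensus the best match lies 12 to 55 bp from the midpoint. In the upstream CACNG7 site it lies 200 bp from the midpoint of the orange site, which is not the zero of the axis. In CACNG5 intron 1 it lies beyond the edge of the orange site.

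Consensus matches also lay outside called sites. The gene regions with their flanks held no match without mismatch, 6 matches with 1 mismatch and 35 matches with 2. Of the 6, 4 lay in a basal site and 3 in a site at the increased dosage, and of the 35, 2 did at either dosage. In the whole genome 12.1% of the 8057 matches with 1 mismatch and 0.898% of the 87405 matches with 2 lay in a basal site. Of the 816 matches without mismatch 74.5% did. The matches with 1 mismatch outside the sites of both lists were in intron 1 of CACNG5 and in intron 1 of CACNG4, and they are shown for comparison with those in sites.
CACNG5 intron 1, chr17:64832340-64832360, minus strand: gatcCTGTCCTGGGTCCTGct
CACNG4 intron 1, chr17:64968490-64968510, plus strand: ggagCTGTCCTCTGTGCTGta
The former carries G12C, as the match in CACNG7 intron 4 does, and the latter carries G9T. Both lack the bases AA that follow the consensus in the best matches of CACNG2, CACNG3 and CACNG7. The match in the basal site in CACNG5 intron 1 lacks them too.

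All members but CACNG2 and CACNG3 lie in 2 clusters of parallel order, known to have arisen by duplication. On chromosome 17 CACNG5 is followed by CACNG4 and CACNG1, and on chromosome 19 CACNG7 is followed by CACNG8 and CACNG6, all on the plus strand. In both clusters the sites lay at the type II TARP gene that comes first and not at the genes behind it. At both, a wide site lay before the gene start, 5.31 kb at CACNG5 and 5.96 kb at CACNG7 in the basal list. Each also had an intronic basal site, 299 bp wide in intron 1 of CACNG5 and 599 bp in intron 4 of CACNG7. These intronic sites lay 12.8 and 18.7 kb inside. The upstream site held the consensus at CACNG7 and not at CACNG5. The nearest site to CACNG8 was that in CACNG7 intron 4, 34.7 kb away at the basal dosage, and the same site was nearest to CACNG6, at 63.4 kb. The nearest to CACNG4 and CACNG1 was that in CACNG5 intron 1, 117 and 197 kb away. The 4 genes without a site were also scanned for the consensus, with the flanks included. CACNG4 (chromosome 17, 64960823 to 65029514, plus strand) held the match with 1 mismatch shown above and 5 with 2 mismatches. CACNG1, behind it (65040670 to 65052913, plus strand), held 1 match with 2 mismatches. On chromosome 19, CACNG8 (54466191 to 54493469, plus strand) held 5 matches with 2 mismatches and CACNG6 (54494891 to 54515920, plus strand) held 2. By comparison CACNG2 and CACNG3 held 7 and 6 matches with 2 mismatches, of which 0 and 1 lay in a site. Just outside the flank of 10 kb lay a site 12.2 kb before CACNG7, with a width of 399 bp at the basal and 499 bp at the increased dosage.

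The SF-1 consensus occurred in 2 of 7 basal sites and 1 of 8 sites of the increased list, against 11.4% and 11.5% of all sites. These shares were not matched for width, and most of the member sites were wider than the list median. Besides the match in CACNG5 intron 1, it lay in the site at the start of CACNG2 at both dosages. There it reads gggcagCAAGGCCAgcgcag at chr22:37099687-37099694 on the plus strand, in the 5′ UTR of exon 1, 106 bp inside the gene and 66 bp from the basal midpoint. SF-1 binding is not part of these lists.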

How the data were processed

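NRSF/REST ChIP-seq of H295R/TR SF-1 cells was analysed from 1 library per SF-1 dosage. Another 2 input DNA libraries in the labels have no group by dosage and were not analysed here. Per the labels and the methods, reads had been aligned by the authors to the hg19 build using ELAND, and the submitters' processing notes list CASAVA 1.6. CisGenome settings are stated for SF-1 sites, and for NRSF/REST sites they are not given in the sources used here. The deposited lists give each site's start and end, an order number and a score, which is 1000 throughout. No counts are included.

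Starts were converted to a count from 1. Overlap meant at least 1 bp. Genes came from GENCODE release 44 on GRCh37 (64449 genes, 20163 protein-coding, mitochondrial genes left out), and sequences from the same assembly. Sequences were read with pysam 0.24.0 and figures drawn with matplotlib 3.10.9, under Python 3.11.15 with scipy 1.17.1 and numpy 2.4.6. Of the members, CACNG3 and CACNG6 were matched in the RefSeq promoter table. On simulated data, 1000 of 1000 overlaps, 200 of 200 consensus matches and 200 of 200 flank assignments were recovered. No test was made between single libraries. Members, gene lists and classes were chosen with earlier results of these data known. Named genes were all 8 members, other protein-coding genes within 10 kb of their sites (not reported here) and the gene with the widest basal site in each related list. The CACNG3 repeat, the sequence copies and the cluster comparison were added after values were seen. Alternatives changed the flank, list, overlap, mismatches and annotation.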

Additional observations from a re-analysis of the deposited data

How the results depend on the processing

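Of 68 recomputed values, 54 stayed within the limits set for them (1.5 times for a count, the 95% Wilson interval for a share) and 14 did not. The number of gamma subunit genes with a site was 4 at both dosages under each alternative run except a flank of 50 kb, which gave 5. Sites numbered from 5 to 9 at the basal and from 6 to 10 at the increased dosage. With sites within 500 bp merged, each list gave 7, because the second site in CACNG7 intron 4 joined its neighbour. Sites present at both dosages numbered 6 in each list under both stricter overlap rules. The consensus without mismatch was found in 0 sites at the basal and 0 at the increased dosage. The background share of protein-coding genes with a site was 9.91% and 9.74% with no flank, 12.1% and 11.8% with 5 kb, 25.9% and 25.3% with 50 kb, 8.35% and 7.90% for the widest 50% of each list, and 8.25% and 7.89% for the first 50% by order number; fewer or more bases and sites enter by construction. With all annotated genes it was 8.48% and 8.05%. No paired analysis was possible because there is 1 library per dosage. Without read counts, strength of binding and depth cannot be compared.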

Other observations

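The partners of the gamma subunits were looked up by the same rule, in lists chosen with earlier results of these data known. In the basal list 13.9% of all protein-coding genes and 31.2% of those of 100 kb or more had a site, and in the increased list 13.6% and 30.6%. Of the 4 AMPA receptor subunit genes, GRIA2 and GRIA4 had a site at both dosages, and the widest basal site was that at GRIA2 with 999 bp and a match to the consensus without mismatch (chr4:158141001-158141999). Of 7 genes of other AMPA receptor auxiliary subunits, 5 had a site at both dosages, with 9 sites in each list, of which 8 were shared. The widest basal site was at GSG1L, which encodes another claudin relative that binds AMPA receptors, with 1249 bp and a match without mismatch. Of the 4 synaptic scaffold genes DLG1 to DLG4, DLG2 and DLG4 had a site, none over 499 bp at the basal dosage. None of 5 relatives outside the family (TMEM37, TMEM114, TMEM235, PMP22 and LIM2) had one. Median gene length was 316, 276, 159 and 9.68 kb in these lists, against 47.2 kb for the gamma subunits.

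Among the other subunits of calcium channels, 6 of 10 alpha-1 genes had a site at both dosages, with 16 sites in the basal and 15 in the increased list. The widest basal site was at CACNA1B with 1849 bp. Of 8 beta and alpha2delta genes, 3 had a site at the basal dosage, the widest at CACNA2D4 with 1249 bp, and 4 at the increased dosage. The median length of these genes was 183 and 204 kb. Differences in the number of genes with a site between these lists and the gamma subunits were not tested. GRIA4 and DLG4 were named after their values were seen.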
